A study of Mus musculus with 16 samples.

Results

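The tumour suppressor p53, its relative p63, its inhibitor Mdm2 and genes that arrest growth under stress were followed in quadriceps muscle of mice fed a control diet (CON) or a high-fat diet (HFD), at rest or after a bout of treadmill running. The genes were chosen by symbol in the table of expression values, as Trp53, Trp63, Mdm2, Cdkn1a, Gadd45a, Gadd45b, Gadd45g, Sesn1, Btg1 and Btg2, which are 10 of the 23970 symbols in the table. All 10 had a mean of at least 0.5 FPKM (mapped fragments scaled to the length of the transcript and the size of the library) and were among the 11256 genes tested. RNA was sequenced from whole quadriceps of 16 male C57BL/6NTac mice aged 16 weeks, in 4 groups of 4: CON-pre and HFD-pre before exercise, and CON-post and HFD-post 3 h after a maximal treadmill test. The mice were wild type, all groups had been made used to the treadmill and were fasted, and the pre and post groups were different animals, so no value follows one mouse over time. The libraries resembled each other closely, with pairwise correlations of log2 values from 0.966 to 0.984, and their relative depth, judged from the lowest values in the table, ran from 0.705 to 1.12 of that of CON-pre replicate 1. Each library carried the RNA of fast muscle fibres, with 10 myofibre markers summing to between 61682 and 88513 FPKM.

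The p53 protein is a transcription factor that DNA damage and other stresses stabilise, and that then switches on genes which halt the cell cycle, repair DNA or restrain growth. Mdm2 is a ubiquitin ligase that marks p53 for destruction, and is itself a p53 target, which closes a feedback loop. Cdkn1a encodes p21, an inhibitor of cyclin-dependent kinases. The GADD45 proteins are small acidic stress proteins that bind cell-cycle and stress kinases, Sesn1 encodes a sestrin that lowers mTORC1 signalling when amino acids are scarce, and the BTG proteins bind the CCR4-NOT complex, which shortens the poly(A) tails of mRNAs. Myofibres do not divide, so in muscle many of these genes are studied for their part in atrophy, metabolism and the response to contraction. Gadd45a and Cdkn1a in particular are known to be induced in denervated muscle.

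The DNA just upstream of these genes was read from RefSeq, with 9 of the 10 genes matched and 11 start sites among them, as the 250 bases before each start in the GRCm38.p6 promoter table. Each window matched the mm9 genome, which the submitters' processing notes name, at exactly 1 place, and positions are given in mm9. The windows of Btg2, Cdkn1a and Sesn1 are printed because they belong to genes whose level was higher after exercise and because each holds a motif of a stress or signal-responsive factor and overlaps no exon of the GENCODE M1 annotation. The Gadd45a window, which also holds a half-site of the p53 consensus (GGGCTAGCCC, 40 to 31 bases before the start), shares 50 bases with an annotated Gadd45a exon and is not printed. The capitals mark the full cAMP response element (CRE) in Btg2 and half-sites of the p53 consensus in Cdkn1a and Sesn1. The Btg2 window lies on the minus strand at chr1:135975733-135975982, the window of the first Cdkn1a start on the plus strand at chr17:29227674-29227923, and that of the second Sesn1 start on the plus strand at chr10:41606995-41607244, inside an intron of the longer Sesn1 transcript in the GENCODE M1 annotation.
Btg2: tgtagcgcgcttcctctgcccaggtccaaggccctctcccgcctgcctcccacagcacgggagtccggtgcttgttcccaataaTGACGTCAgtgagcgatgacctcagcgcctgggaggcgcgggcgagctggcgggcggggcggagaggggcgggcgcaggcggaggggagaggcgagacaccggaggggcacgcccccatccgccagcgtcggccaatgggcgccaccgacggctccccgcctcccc
Cdkn1a: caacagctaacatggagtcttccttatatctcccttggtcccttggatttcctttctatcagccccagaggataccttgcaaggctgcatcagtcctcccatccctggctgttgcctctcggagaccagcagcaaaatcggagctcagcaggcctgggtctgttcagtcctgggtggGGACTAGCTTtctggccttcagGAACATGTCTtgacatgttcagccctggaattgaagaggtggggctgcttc
Sesn1: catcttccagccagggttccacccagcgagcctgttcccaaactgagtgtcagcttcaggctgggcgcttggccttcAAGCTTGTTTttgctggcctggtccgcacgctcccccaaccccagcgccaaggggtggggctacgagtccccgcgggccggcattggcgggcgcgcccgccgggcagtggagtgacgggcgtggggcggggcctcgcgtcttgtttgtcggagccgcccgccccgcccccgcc

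In the Btg2 window the element TGACGTCA stood 166 to 159 bases before the start. It was the only full CRE among the 11 starts, and 1.55% of 32851 promoter windows of the same length held one. In the first Cdkn1a window the p53 half-sites GGACTAGCTT and GAACATGTCT stood 73 to 64 and 51 to 42 bases before the start. They were the only pair of half-sites in tandem (0 to 13 bases apart) among the 11 starts, an arrangement found in 0.0639% of all windows. Single half-sites of the p53 consensus lay in 5 of the 11 windows (those of Trp53, Mdm2, Cdkn1a, Gadd45a and Sesn1), against 7.13% of all windows. In the Sesn1 window the half-site AAGCTTGTTT stood 173 to 164 bases before the start. The CRE half-site (TGACG or CGTCA, which the full element contains) lay in 3 of the 11 windows, against 17.8% of all. The AP-1 site TGANTCA (6.75% of all windows) and the CArG box (1.47%) were in none of the 11. Every motif was searched on both strands, a match is only a run of letters, and nothing follows from these windows about which factor was bound.

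The genes lie on 7 chromosomes, with 4 of them on chromosome 10. In mm9 with GENCODE M1, Btg1 spans 96079635 to 96085447, Gadd45b 80392836 to 80394949, Sesn1 41530380 to 41628230 and Mdm2 117125944 to 117147814 on chromosome 10. Btg2 spans 135971747 to 135975697 on chromosome 1, Gadd45a 66985090 to 66987451 on chromosome 6, and Trp53 69393861 to 69405375 on chromosome 11. Gadd45g spans 51942047 to 51943837 on chromosome 13, Trp63 25683849 to 25892188 on chromosome 16, and Cdkn1a 29227924 to 29237667 on chromosome 17. All 10 are annotated as protein coding.

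The 10 genes covered a wide range of levels. On the FPKM scale, which is per length of transcript, Gadd45g had the highest mean over the 16 libraries at 20.8 FPKM and stood at the 84.8th percentile of the genes tested. It was followed by Mdm2 (14.9 FPKM), Gadd45a (14.1 FPKM), Sesn1 (10.8 FPKM), Gadd45b (10.4 FPKM), Cdkn1a (7.53 FPKM), Btg2 (7.31 FPKM), Trp53 (4.31 FPKM), Trp63 (3.74 FPKM) and Btg1 (2.21 FPKM, at the 30.7th percentile). The ranges over libraries overlapped in every neighbouring pair of this order, so the order is that of the means only. The genes also differed in how much they varied: the coefficient of variation over the 16 libraries was highest for Gadd45g (60.9%) and lowest for Mdm2 (9.26%).

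**Figure D1:**
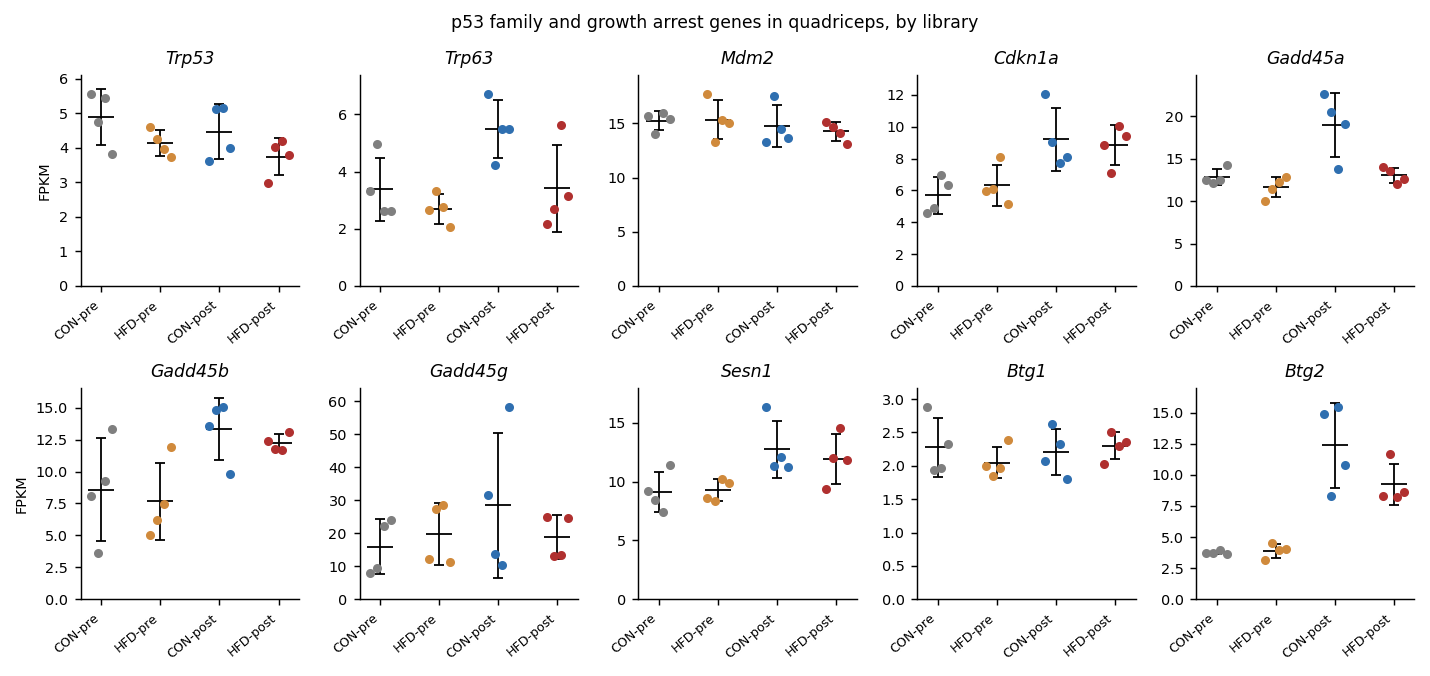
FPKM of the 10 genes (vertical axes, each starting at 0) in the 4 groups (horizontal axes). Each point is 1 library, and the bars are the mean and SD of 4 libraries. Btg2 lies between 3.13 and 4.50 FPKM in the 8 libraries before exercise and between 8.25 and 15.4 FPKM in the 8 after it, whereas Mdm2 stays between 13.1 and 17.7 FPKM throughout.

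To ask how the genes responded to acute exercise, post was compared with pre within each diet and as the average of both diets. Btg2 rose in both diets, Gadd45a rose on the control diet by a narrow margin of the test, and Cdkn1a, Sesn1 and Gadd45a passed in the average of both diets. Trp53 and Mdm2 had fold changes near 1 in every exercise comparison. On the control diet 2 of the 10 genes passed at an adjusted p under 0.05 (limma, Benjamini-Hochberg over 11256 genes), both higher, where 1.11% of all genes tested passed and 0.968% passed as higher. On the high-fat diet 1 of 10 passed, where 0.542% of all genes did and 0.489% as higher. In the average of both diets 4 of 10 passed, all higher, where 3.86% of all genes did and 2.95% as higher. The median log2 fold change of the 10 genes was 0.59 on the control diet, 0.20 on the high-fat diet and 0.37 on average, beside medians over all genes of -0.01, 0.04 and 0.01.

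**Figure D2:**
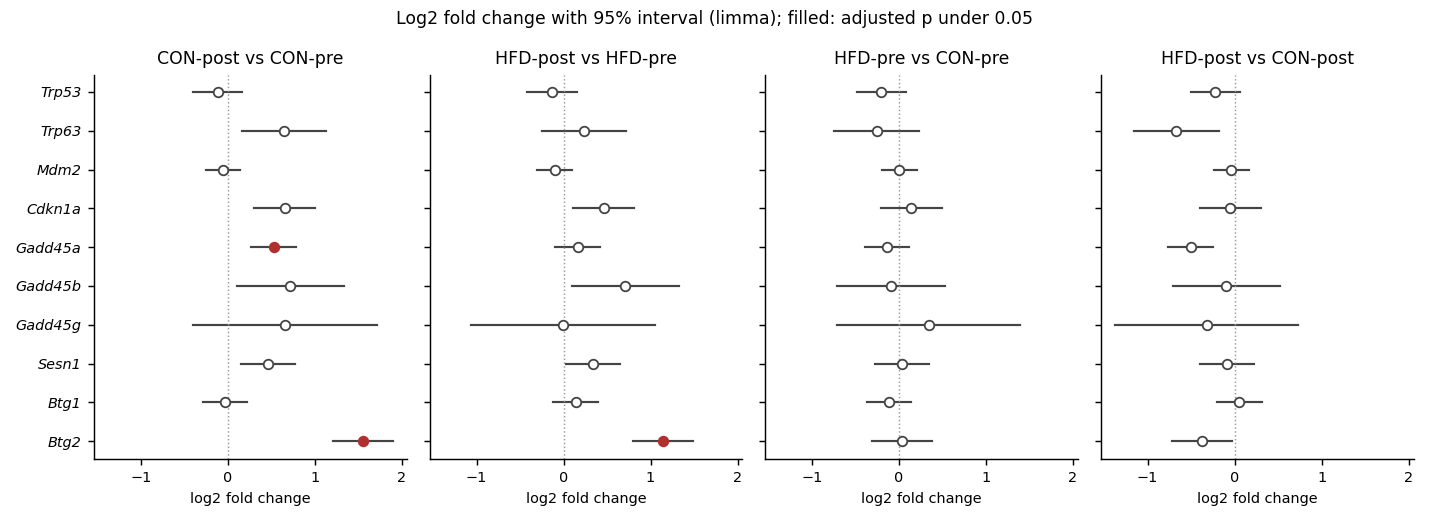
Log2 fold change (horizontal axis, on the scale of log2(FPKM + 0.5)) of each gene in the 2 exercise and the 2 diet comparisons, with 95% intervals from limma. Filled points passed at an adjusted p under 0.05, namely Btg2 and Gadd45a in CON-post against CON-pre and Btg2 in HFD-post against HFD-pre, and no gene passed in the diet comparisons.

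Btg2, the antiproliferative protein that recruits the CCR4-NOT deadenylase, gave the clearest change. Its level was 3.73, 3.75, 3.95 and 3.67 FPKM in the CON-pre libraries and 14.9, 8.33, 15.4 and 10.8 FPKM in CON-post. In HFD-pre it was 3.13, 4.50, 3.92 and 4.06 FPKM, and in HFD-post 8.32, 11.7, 8.25 and 8.63 FPKM. The pre and post libraries did not overlap in either diet, and the 4 CON-pre libraries were nearly equal to each other, with a coefficient of variation of 3.25%. Btg2 rose by 1.55 ± 0.16 (SE) on the log2 scale in CON-post, a fold of 2.92 (95% interval 2.30 to 3.71, limma adjusted p = 6.77e-05). In HFD-post it rose by 1.14 ± 0.16, a fold of 2.20 (1.73 to 2.79, limma adjusted p = 0.00377). This was the gene with the 8th lowest p of 11256 on the control diet and the 7th lowest on the high-fat diet. The values come from whole tissue, where more cells of a type cannot be told apart from more RNA per cell. Btg1, its close relative, ranged only from 1.81 to 2.88 FPKM over all libraries, and its log2 fold change was -0.03 (95% interval -0.29 to 0.22) on the control diet and 0.14 (-0.12 to 0.39) on the high-fat diet.

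Cdkn1a, which encodes the cyclin-dependent kinase inhibitor p21, was measured at 4.56, 4.89, 6.99 and 6.34 FPKM in CON-pre and at 12.1, 9.02, 7.70 and 8.12 FPKM in CON-post. In HFD-pre it was 5.97, 6.10, 8.12 and 5.12 FPKM, and in HFD-post 8.88, 7.09, 10.03 and 9.40 FPKM. Every CON-post library lay above every CON-pre library, whereas on the high-fat diet HFD-pre replicate 3 lay above HFD-post replicate 2. Within 1 diet the change missed the threshold, with a log2 fold change of 0.65 ± 0.16 in CON-post (limma adjusted p = 0.0729) and 0.46 ± 0.16 in HFD-post (limma adjusted p = 0.274). Averaged over both diets Cdkn1a rose by 0.56 ± 0.12 on the log2 scale, a fold of 1.47 (limma adjusted p = 0.0125), and this call held under all 26 alternatives tried. Groups that did not overlap, with post higher, were found for 2 of the 10 genes on the control diet (Btg2 and Cdkn1a) and for Btg2 on the high-fat diet, beside 3.29% and 4.72% of all genes.

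The 3 GADD45 genes, which encode stress proteins that bind PCNA and the kinase MAP3K4, gave 1 call among them within a diet, that of Gadd45a on the control diet. Gadd45a was 12.4, 12.2, 12.5 and 14.2 FPKM in CON-pre and 22.7, 20.5, 13.7 and 19.1 FPKM in CON-post. It was 10.1, 11.4, 12.3 and 12.8 FPKM in HFD-pre and 14.1, 13.5, 12.1 and 12.6 FPKM in HFD-post. Thus 3 of the 4 CON-post libraries stood above all other libraries of the series, while CON-post replicate 3 lay within the range of CON-pre. Gadd45a rose by 0.53 ± 0.12 on the log2 scale in CON-post, a fold of 1.44 (limma adjusted p = 0.0455), and its value in HFD-post was 0.16 (95% interval -0.10 to 0.42, limma adjusted p = 0.646). The CON-post call stood close to the threshold: it was lost under 21 of 27 alternatives, and of the 16 fits that left out 1 library it was kept only without CON-pre replicate 4, HFD-pre replicate 1 or CON-post replicate 3 (adjusted p from 0.00199 to 0.152). In the average of both diets Gadd45a rose by 0.34 ± 0.09 (limma adjusted p = 0.0335), a call lost under 15 of 26 alternatives.

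Gadd45b was 8.06, 3.60, 9.26 and 13.4 FPKM in CON-pre and 13.6, 14.8, 15.0 and 9.83 FPKM in CON-post. It was 5.01, 6.21, 7.50 and 11.9 FPKM in HFD-pre and 12.4, 11.8, 11.7 and 13.1 FPKM in HFD-post. The pre groups were spread over a wide range and overlapped the post groups in both diets, through replicate 4 of each pre group. Its log2 fold change was nearly equal on the 2 diets, 0.72 ± 0.29 and 0.71 ± 0.29. With 1 library left out it ran from 0.376 to 0.962 in CON-post and from 0.544 to 0.935 in HFD-post. The average of both diets, 0.71 ± 0.21, gave a limma adjusted p of 0.0658, above the threshold. Without CON-pre replicate 4 that adjusted p was 0.0186, without HFD-pre replicate 4 it was 0.0284, and with array weights, which give noisier libraries less weight, it was 0.0374. The other 23 of 26 alternatives gave no call, and with 1 library left out the adjusted p ran from 0.0186 to 0.137.

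Gadd45g, the most abundant of the 10, was 8.01, 9.52, 22.2 and 23.97 FPKM in CON-pre and 31.6, 13.7, 10.3 and 58.3 FPKM in CON-post. It was 12.1, 27.4, 28.6 and 11.3 FPKM in HFD-pre and 25.03, 12.97, 13.3 and 24.5 FPKM in HFD-post. In each group high and low libraries lay far apart, and the pre and post ranges overlapped on both diets. CON-post replicates 1 and 4 lay above every CON-pre library, and CON-pre replicates 1 and 2 below every CON-post library. Its log2 fold change was 0.65 (95% interval -0.40 to 1.71) in CON-post and -0.01 (-1.06 to 1.05) in HFD-post, the widest intervals of the 10 genes. With 1 library left out the CON-post value ran from 0.207 to 1.021.

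Sesn1, the sestrin, was 9.22, 8.40, 7.43 and 11.4 FPKM in CON-pre and 16.4, 11.4, 12.1 and 11.2 FPKM in CON-post. In HFD-pre it was 8.61, 8.34, 10.3 and 9.86 FPKM, and in HFD-post 9.37, 12.1, 14.5 and 11.8 FPKM. The post libraries were mostly higher, but CON-pre replicate 4 lay inside the range of CON-post and HFD-post replicate 1 inside that of HFD-pre. Its log2 fold change was 0.46 ± 0.15 in CON-post (limma adjusted p = 0.183) and 0.34 ± 0.15 in HFD-post (limma adjusted p = 0.374). Averaged over both diets Sesn1 rose by 0.40 ± 0.10 on the log2 scale, a fold of 1.32 (limma adjusted p = 0.0399). That call was lost under 16 of 26 alternatives, and of the 16 fits without 1 library it was kept only without CON-pre replicate 4, HFD-pre replicate 3 or 4, CON-post replicate 2 or 4, or HFD-post replicate 1.

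The p53 family itself did not pass the test. Trp53 was 5.56, 4.73, 5.43 and 3.81 FPKM in CON-pre and 3.60, 5.13, 5.15 and 3.98 FPKM in CON-post, with ranges that overlapped in part. It was 4.59, 4.26, 3.96 and 3.73 FPKM in HFD-pre and 2.98, 4.01, 4.19 and 3.80 FPKM in HFD-post. Its log2 fold change was -0.12 (95% interval -0.40 to 0.17) in CON-post and -0.13 (-0.42 to 0.15) in HFD-post. Mdm2, the inhibitor of p53, ranged from 13.1 to 17.7 FPKM over all 16 libraries, and its log2 fold change was -0.06 (-0.26 to 0.14) in CON-post and -0.10 (-0.30 to 0.10) in HFD-post. These intervals exclude a change of 1.5-fold in either direction for Trp53 and Mdm2 in both diets.

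Trp63, which is best known as the master regulator of stratified epithelia but is also transcribed in muscle, was 3.33, 4.96, 2.64 and 2.61 FPKM in CON-pre and 6.72, 4.22, 5.48 and 5.50 FPKM in CON-post. It was 2.66, 3.31, 2.76 and 2.05 FPKM in HFD-pre and 2.17, 2.70, 5.61 and 3.16 FPKM in HFD-post. The CON-post libraries stood highest, with CON-pre replicate 2 and HFD-post replicate 3 inside their range. The log2 fold change was 0.65 ± 0.23 in CON-post (unadjusted p = 0.0124, limma adjusted p = 0.253) and 0.23 ± 0.23 in HFD-post (limma adjusted p = 0.743). Keratinocyte markers were low in most libraries. The sum of 10 of them was 3.65 to 7.33 FPKM in CON-pre, 0.874 to 1.99 FPKM in HFD-pre, 1.37 to 17.9 FPKM in CON-post and 0.922 to 31.3 FPKM in HFD-post. Krt5 was at 0 in 7 of the 16 libraries, Krt14 in 8 and Krt15 in 14, and the sum correlated with Trp63 at r = 0.50 over the 16 libraries. Perp and Sfn, with medians of 0.724 and 0.652 FPKM, are part of this sum and also of the p53 targets counted below. The libraries with the highest marker sums, CON-post replicate 1 (17.9 FPKM) and HFD-post replicate 3 (31.3 FPKM), were also those with the most Trp63 of their groups, while CON-post replicates 3 and 4 had 5.48 and 5.50 FPKM of Trp63 beside marker sums of 1.37 and 1.74 FPKM. Without CON-post replicate 1 the log2 fold change of Trp63 on the control diet was 0.55, and without HFD-post replicate 3 that on the high-fat diet was -0.005. The part of these cells in the Trp63 values was otherwise not tested. Trp73, the remaining family member, had a mean of 0.00927 FPKM and was too low to test.

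At an unadjusted p under 0.05, 6 of the 10 genes were higher in CON-post (Btg2, Gadd45a, Cdkn1a, Sesn1, Trp63 and Gadd45b) beside 6.13% of all genes, and none was lower. In HFD-post 4 were higher (Btg2, Cdkn1a, Gadd45b and Sesn1) beside 8.50% of all genes, and none was lower. Both exercise comparisons were estimated in the same fit from different libraries.

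Diet was compared before exercise and after it. Before exercise no gene of the 10 passed the test at an adjusted p or at an unadjusted p under 0.05, where 0.346% and 8.25% of all genes did. The largest differences of HFD-pre from CON-pre were 0.34 for Gadd45g (95% interval -0.72 to 1.39), -0.26 for Trp63 (-0.74 to 0.23) and -0.21 for Trp53 (-0.49 to 0.08) on the log2 scale, and the other 7 ran from -0.14 for Gadd45a to 0.14 for Cdkn1a. Btg2 and Mdm2 differed by 0.03 (-0.31 to 0.38) and 0.003 (-0.20 to 0.20). After exercise no gene passed at an adjusted p, where 0.151% of all genes did. At an unadjusted p under 0.05, 3 genes were lower in HFD-post than in CON-post, where 3.17% of all genes were lower. They were Gadd45a (log2 difference -0.50, limma adjusted p = 0.165), Trp63 (-0.67, limma adjusted p = 0.506) and Btg2 (-0.38, limma adjusted p = 0.738). For Gadd45a 26 of 27 alternatives also gave no call. The exception left out CON-post replicate 3, the lowest of its group, with a log2 difference of -0.65 and a limma adjusted p of 0.0113. Leaving out that library widens the difference, and with 1 library left out the adjusted p ran up to 0.388.

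Averaged over both exercise states, the diet comparison gave no call among the 10 genes, where 0.959% of all genes passed. Gadd45a was lower on the high-fat diet by a log2 value of -0.32 (limma adjusted p = 0.106). With 1 library left out that adjusted p ran from 0.00488, without CON-post replicate 3, to 0.207. Trp63 was lower by -0.46 (limma adjusted p = 0.258) and Trp53 by -0.21 (limma adjusted p = 0.435). The keratinocyte marker sum includes the p53 targets Perp and Sfn. It was 3.65 to 7.33 FPKM in CON-pre and 0.874 to 1.99 FPKM in HFD-pre, lower on the high-fat diet without overlap. After exercise the ranges of the diets overlapped, and the part of this sum in the Trp63 difference was not tested. Trp53 tracked the marker sums of several cell types over the 16 libraries, with r = 0.775 for 9 macrophage markers, 0.757 for 10 myofibre markers and 0.715 for 6 fibroblast markers. The macrophage sum was 91.5 to 158 FPKM in CON-pre, 84.8 to 109 FPKM in HFD-pre, 74.1 to 198 FPKM in CON-post and 67.3 to 139 FPKM in HFD-post, with no marker at 0. The myofibre sum was 80434 to 88513 FPKM in CON-pre, 70129 to 76991 FPKM in HFD-pre, 70907 to 81585 FPKM in CON-post and 61682 to 75768 FPKM in HFD-post, so that CON-pre lay above HFD-pre without overlap. The fibroblast sum was 376 to 474, 364 to 453, 330 to 544 and 351 to 435 FPKM in the same order, with no marker at 0. The part of these cells in the Trp53 values was not tested.

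Whether the response to exercise differed between the diets was asked with the interaction term. No gene of the 10 passed, and neither did any of the 11256 genes (0% at a limma adjusted p under 0.05, and 356 genes or 3.16% at an unadjusted p under 0.05). The response of Gadd45a was smaller on the high-fat diet by a log2 value of -0.37 (95% interval -0.73 to -0.003, unadjusted p = 0.0485, limma adjusted p = 1). The values were -0.41 (-0.90 to 0.08) for Btg2, -0.41 (-1.10 to 0.28) for Trp63, -0.66 (-2.15 to 0.83) for Gadd45g and -0.005 (-0.88 to 0.87) for Gadd45b. Thus a call for Gadd45a on 1 diet and not on the other does not show that the diets differed.

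Relatives were then compared within each library, as the log2 ratio of their values, which cancels what a library does to both. The pairs were chosen after the values were known, and 12 exact permutation tests were run (6 pairs for exercise and for diet, permuting libraries within the other factor). The ratio of Btg2 to Btg1 was 0.64 ± 0.24 (SD, n = 4) in CON-pre and 2.22 ± 0.49 in CON-post. It was 0.78 ± 0.24 in HFD-pre and 1.78 ± 0.17 in HFD-post. Every post library had a higher ratio than every pre library, and the average change of 1.29 gave an exact permutation p of 0.000408, the smallest these 4900 permutations can give (two-sided, adjusted p = 0.0049 over the 12 tests). Btg2 alone already separated the same libraries and Btg1 changed little, so this p restates the result for Btg2. The adjustment over 12 tests does not cover the choice of the pairs.

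The ratio of Cdkn1a to Cdkn1b, the related inhibitor p27, changed by 0.43 with exercise (0.50 on the control and 0.36 on the high-fat diet, exact permutation p = 0.00571, adjusted p = 0.0343). The ratio of Trp63 to Trp53 changed by 0.57 (0.76 and 0.37, exact permutation p = 0.011, adjusted p = 0.0441), from -0.50 ± 0.41 in CON-pre to 0.27 ± 0.46 in CON-post and from -0.55 ± 0.19 in HFD-pre to -0.18 ± 0.39 in HFD-post. It was highest in CON-post replicate 1 (0.817) and HFD-post replicate 3 (0.384), which also had the highest keratinocyte marker sums of their groups. A ratio does not cancel RNA of other cells, and their part in it was not tested. With 1 library left out and the 12 tests adjusted anew, the Cdkn1a call was lost in 8 of 16 cases (adjusted p up to 0.0759) and the Trp63 call in 11 of 16 (up to 0.104), in exact permutation tests that then have fewer permutations. The 3 ratios among the GADD45 genes changed by -0.37 (Gadd45a to Gadd45b, exact permutation p = 0.121), 0.02 (Gadd45a to Gadd45g, p = 0.969) and 0.39 (Gadd45b to Gadd45g, p = 0.402). For diet all 6 ratios had an adjusted exact permutation p of at least 0.508.

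**Figure D3:**
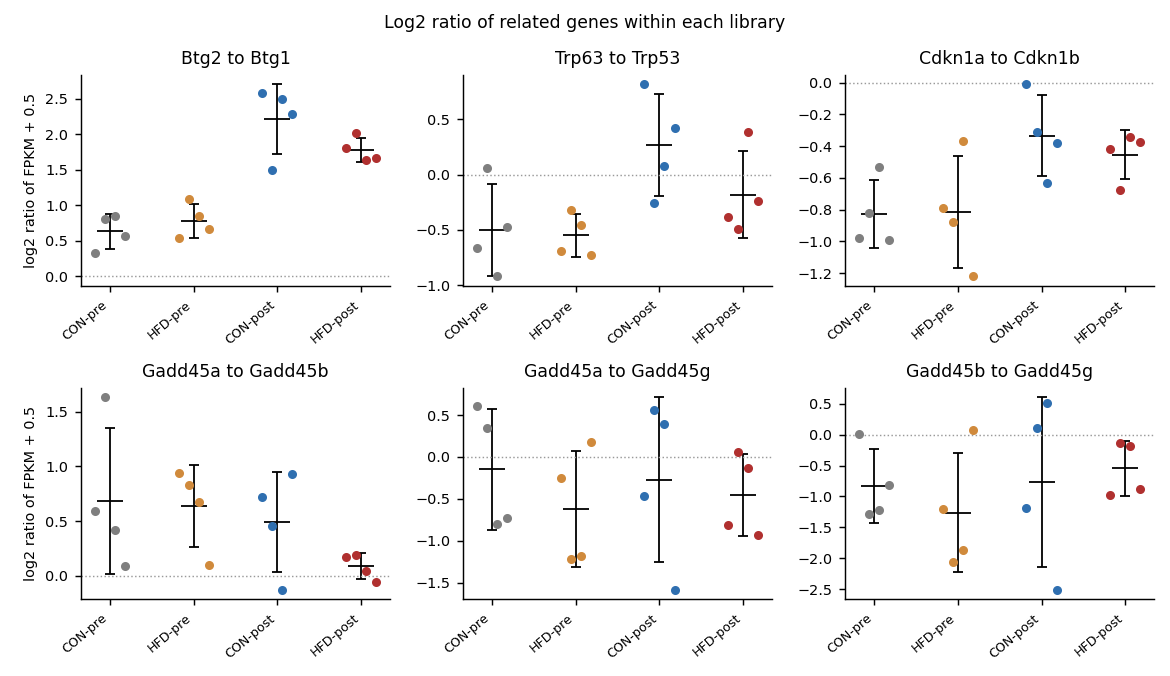
Log2 ratio of related genes within each library (vertical axes, from FPKM + 0.5) in the 4 groups, with 1 point per library and bars for the mean and SD of 4. The ratio of Btg2 to Btg1 separates the 8 post libraries from the 8 pre libraries, and the ratios among the GADD45 genes overlap between groups.

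The paralogs of the 10 genes did not pass at an adjusted p in any comparison. Tob1 (mean 72.4 FPKM over the 16 libraries) and Tob2 (17.3 FPKM), the larger relatives of the BTG proteins, had average exercise responses of -0.01 and 0.19 on the log2 scale. Cdkn1b (11.4 FPKM) and Cdkn1c (6.04 FPKM), the other inhibitors of the p21 family, had 0.13 and 0.01. Sesn2 (0.607 FPKM) and Sesn3 (1.13 FPKM) were far less abundant than Sesn1 and had -0.05 and 0.01. Sesn3 had an unadjusted p under 0.05 in the diet comparisons, with log2 differences of -0.41 before exercise (limma adjusted p = 0.455), -0.34 after it (0.765) and -0.37 averaged over both states (0.159). Mdm4 (3.95 FPKM), which binds p53 as Mdm2 does, had 0.12, the average of -0.06 in CON-post and 0.30 in HFD-post (unadjusted p = 0.0159, limma adjusted p = 0.293). Its interaction value was 0.36 (unadjusted p = 0.038, limma adjusted p = 1), and before exercise it differed between the diets by -0.32 (unadjusted p = 0.0113, limma adjusted p = 0.409). Btg3 had a mean of 0.00132 FPKM and Btg4 was listed at 0, and neither was tested.

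Other targets of p53 were counted from a list of 36 genes outside the 10, of which 28 were high enough to test. In the average of both diets 2 of the 28 rose with exercise and none fell, beside 2.95% and 0.915% of all genes, and the median of the 28 was 0.005, beside 0.01 over all genes. They were Plk2, a polo-like kinase (log2 fold change 0.92 ± 0.19, limma adjusted p = 0.0107), and Phlda3, an inhibitor of Akt signalling (0.44 ± 0.11, limma adjusted p = 0.0327). Plk2 went from 2.19 ± 0.816 (SD, n = 4) to 5.03 ± 2.14 FPKM on the control diet and from 1.97 ± 0.456 to 3.91 ± 0.983 FPKM on the high-fat diet. Of the 28, 14 had a positive value. None passed in any of the other 6 comparisons. At an unadjusted p under 0.05 in limma there were 5 of the 28 in CON-post, all higher, beside 11.1% of all genes in either direction and 6.13% higher, 4 in HFD-post (2 higher and 2 lower) beside 11.7%, and 5 in the average of both diets (3 higher and 2 lower) beside 18.5%. For diet there were 2 in HFD-pre (1 in each direction) beside 8.25%, 1 in HFD-post against CON-post beside 6.29%, and 3 averaged over exercise states (1 higher and 2 lower) beside 10.4%. In the interaction there was 1 beside 3.16%. In these counts at an unadjusted p, the shares of all genes given without a direction count both directions.

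**Figure D4:**
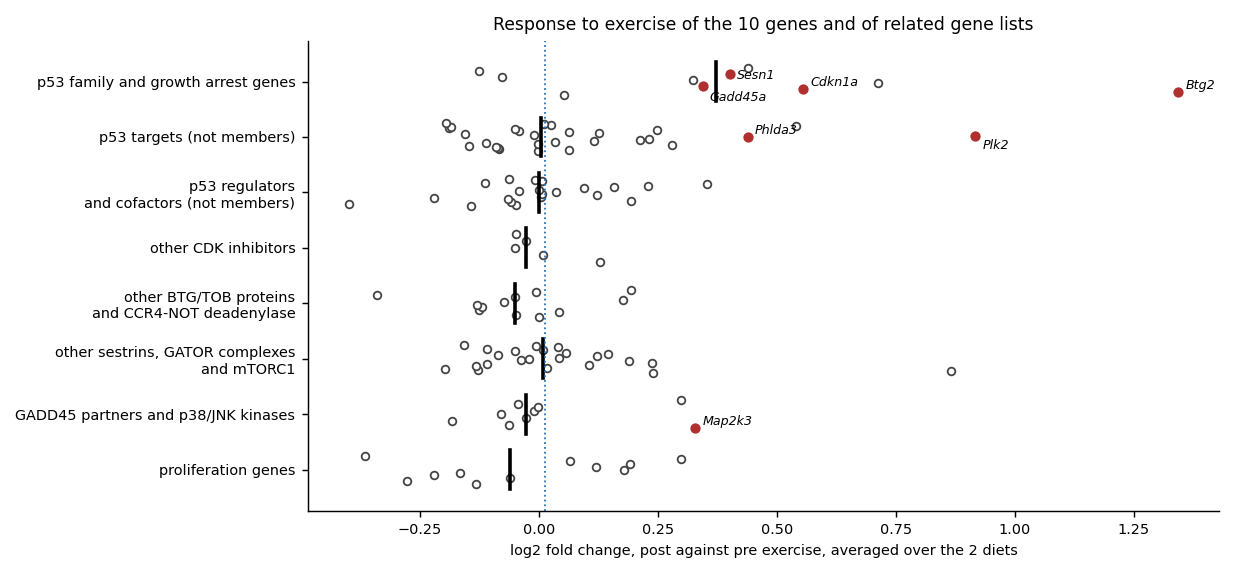
Log2 fold change with exercise, averaged over both diets (horizontal axis), of the 10 genes and of the genes tested in 7 related lists. Each point is 1 gene, filled points passed at a limma adjusted p under 0.05, black bars are list medians and the dotted line is the median of all genes (0.01). Btg2, at 1.34, lies farthest to the right, and the medians of the 7 lists lie near the dotted line.

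Among the partners of these genes 1 passed the test, and only in the average of both diets. Over all genes 0% to 3.86% passed in the 7 comparisons, so a list of this size would hold few calls or none. Of 21 regulators and cofactors of p53 tested (25 listed), none passed in any of the 7 comparisons, and the median exercise response was 0.00. Of 9 partners of GADD45 and kinases of the p38 and JNK branches tested (12 listed), Map2k3, a kinase that activates p38, rose in the average of both diets by 0.33 ± 0.08 (limma adjusted p = 0.0252) beside 2.95% of all genes called higher, and the other 8 did not pass. None of 12 BTG/TOB relatives and CCR4-NOT subunits tested (14 listed) passed, nor any of 23 sestrins, GATOR and mTORC1 genes, nor any of 5 other inhibitors of cyclin-dependent kinases (6 listed), in any comparison. Their median exercise responses were -0.05, 0.01 and -0.03. Of 33 proliferation genes only 11 reached the level for testing and none passed in any comparison. In the average of both diets 18.5% of all genes had an unadjusted p under 0.05 in limma. For the 5 lists without a call the numbers were 4 of 21 p53 regulators (3 higher and 1 lower), 1 of 12 BTG/TOB and CCR4-NOT genes (lower), 7 of 23 sestrin and mTORC1 genes (5 higher and 2 lower), 0 of 5 inhibitors and 3 of 11 proliferation genes (1 higher and 2 lower), and for the GADD45 partners it was 2 of 9 (both higher).

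Over the 16 libraries some of the 10 genes varied together. The highest Pearson correlations of log2 values were 0.741 for Sesn1 with Btg2, 0.724 for Cdkn1a with Btg2 and 0.714 for Cdkn1a with Sesn1, and the lowest was -0.617 for Gadd45g with Btg1. These libraries share the groups, so a common response to exercise enters each value. Each nearest gene was picked for its r from all 11256 genes over the 16 libraries, so a high r follows from the choice. Among all genes tested, the pattern most like that of Btg2 was that of Hk2, which encodes hexokinase 2 (r = 0.958). Hk2 went from 52.9 ± 3.55 (SD, n = 4) FPKM in CON-pre to 111 ± 18.6 FPKM in CON-post, and from 48.6 ± 1.91 to 109 ± 15.3 FPKM on the high-fat diet. The nearest gene to Gadd45g was Errfi1, an inhibitor of the EGF receptor (r = 0.943). The nearest to Trp63 was Mypn, which encodes the sarcomere protein myopalladin (r = 0.885), and the nearest to Sesn1 was Foxj3, a forkhead factor (r = 0.905). Those of the others were Cecr5 for Gadd45b (r = 0.946), Pja1 for Trp53 (0.886), Cmtm6 for Btg1 (0.878), Gucd1 for Cdkn1a (0.860), Slc22a23 for Mdm2 (0.859) and Arl4d for Gadd45a (0.852).

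The marker sums of adipocytes and satellite cells were compared by their ranges, with no test. The sum of 8 adipocyte markers was 475 to 608 FPKM in CON-pre, 521 to 742 FPKM in CON-post, 446 to 557 FPKM in HFD-pre and 547 to 819 FPKM in HFD-post, with no marker at 0. Its median went from 545 to 689 FPKM on the control diet and from 499 to 671 FPKM on the high-fat diet, with pre and post ranges that overlapped on both diets. Most of this sum came from Fabp4 and Lpl, with medians of 303 and 137 FPKM over the 16 libraries. The medians of the others ran from 1.95 FPKM (Lep) to 59.3 FPKM (Cfd), with Adipoq at 18 FPKM. The adipocyte sum correlated with Gadd45b at r = 0.644 and with Btg2 at r = 0.620. The sum of 6 satellite cell markers was 14.4 to 16.7 FPKM in CON-pre, 17.6 to 19.7 FPKM in CON-post, 12.9 to 17.1 FPKM in HFD-pre and 14.6 to 18.9 FPKM in HFD-post, so that pre and post ranges lay apart on the control diet and overlapped on the high-fat diet. Only 3 of the 6 reached the level for testing, namely Cdh15, Chodl and Sdc4, with medians of 5.19, 3.71 and 6.79 FPKM. The highest mean of a single marker was 6.29 FPKM in CON-pre and 8.2 FPKM in CON-post, and the lowest 0.105 and 0.0805 FPKM. The sum correlated with Gadd45b at r = 0.623, with Gadd45a at r = 0.619 and with Btg2 at r = 0.564. Pax7, the defining marker of these cells, had a median of 0.288 FPKM and Calcr was at 0 in 1 library. The part of these cells in the changes of Btg2, Gadd45a and Gadd45b was not tested.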

How the data were processed

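According to the methods and the submitters' processing notes, the authors sequenced strand-specific libraries of mRNA, mapped them to mm9 by TopHat and ran Cufflinks. Its output was deposited as FPKM, which is scaled to transcript length and library size and from which the number of reads behind a value is not known, so no count model and no counting interval were used. Of 24487 entries, 27 whose names had been turned into numbers were left out (0.0771% of all FPKM) and 260 symbols with several entries were summed, leaving 23970. No column of sample values was left out (0). The 10 genes each had 1 entry and none was listed at 0.

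Tests covered genes averaging 0.5 FPKM or more across libraries, on log2(FPKM + 0.5), a scale that understates the change of low genes, with limma 3.58.1 (trend) in R 4.3.3. There was 1 fit of the 4 groups with 7 contrasts, Benjamini-Hochberg adjustment over 11256 genes and a threshold of 0.05. P-values without the word adjusted are from the same fit unless a permutation is named. The replicates of a group are 4 mice. On simulated data for CON-post against CON-pre with 11172 genes, 92 of 97 genes changed by 1 on the log2 scale and 96 of 97 changed by 2 were called, with 7 false calls. The simulated noise was normal and independent between genes. Changes under 1, like those of every gene of the 10 but Btg2, were not simulated. These shares therefore do not say how often such changes are missed. Ratios of relatives were tested by exact permutation in Python 3.11.15. The genes named were the 10, their paralogs, the genes of each list that passed, and for each of the 10 the gene of highest r. The genes, lists and markers were chosen with earlier results of these data known. Alternatives were other pseudocounts, filters, scalings and models, and leaving out each library. The counts of the p53 target list leave out 1 gene, which is not reported here. Metabolite data were not used here.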

Additional observations from a re-analysis of the deposited data

Results flagged for a closer look

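Within groups of 4 libraries, 3 values stood apart from the other 3 by more than Dixon's critical value for the gap to the nearest library as a share of the whole range, of 40 groups examined, and chance alone gives about 1 in 20 such groups. Gadd45a was 14.231 FPKM in CON-pre replicate 4, the highest of its group, with a gap of 0.845 of the range. Sesn1 was 16.35 FPKM in CON-post replicate 1, also the highest, with a gap of 0.83 of the range, which lies on the limit, being equal to the critical value when both are rounded to 3 digits. Btg2 was 11.67 FPKM in HFD-post replicate 2, the highest of its group, with a gap of 0.89 of the range. Without that library Btg2 still passed in HFD-post. Without CON-post replicate 1 the average exercise response of Sesn1 was 0.34 and its limma adjusted p was 0.0699, above the threshold.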

How the results depend on the processing

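The rise of Btg2 passed in every alternative tried, with an adjusted p of 9.41e-06 to 0.00472 in CON-post and 0.000737 to 0.0221 in HFD-post, and so did that of Cdkn1a in the average of both diets (0.00656 to 0.0328). Of the 10 genes, 2 passed in CON-post, but 1 (Btg2, without Gadd45a) with no filter on low values, upper-quartile, median-of-ratios or quantile scaling, no mean-variance trend, a fit without the HFD libraries, array weights, or the replicate block, and 1 to 2 when 1 library was left out. In the average of both diets 4 passed, but 2 (Btg2 and Cdkn1a) with no filter, upper-quartile, median-of-ratios or quantile scaling, or the replicate block, 3 (without Sesn1, adjusted p = 0.0504) with no mean-variance trend, 5 (with Gadd45b, 0.0374) with array weights, and 2 to 5 with 1 library left out. For HFD-post against CON-post and for diet averaged over exercise states the number was 0, and 0 to 1 with 1 library left out, the 1 being Gadd45a without CON-post replicate 3. The causes were not tested. Calls over all genes moved as well, over all alternatives from 72 to 187 beside 125 in CON-post, 21 to 78 beside 61 in HFD-post, 246 to 591 beside 435 in the average of both diets, 21 to 63 beside 39 in HFD-pre, and 2 to 19 beside 17 in HFD-post against CON-post. Upper-quartile scaling gave 262 higher of 537 in place of 332 of 435 (102 of 140 in place of 109 of 125 in CON-post, 40 of 60 in place of 55 of 61 in HFD-post). The labels share replicate numbers across groups, so correlations between groups were taken on deviations from the group means. Same-number libraries correlated at -0.2201 to 0.2127 (median -0.0218), with 5 of 24 pairs over 0.1. Libraries of other numbers correlated at -0.2208 to 0.212 (median 0.0159), with 13 of 72 pairs over 0.1. Of 16 libraries 3 were closest to their own number, so no pairing by number was seen. The replicate block changed no other count among the 10 genes, and over all genes it gave 116 calls in CON-post, 42 in HFD-post, 328 in the average of both diets and 32 in HFD-pre.

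Of 1860 alternative fold changes 60 changed sign, and 54 of these left out a library. With array weights they were Mdm2 in HFD-pre (-0.005), Cdkn1a in HFD-post against CON-post (0.02), Sesn1 for diet (0.027), and Trp53 (0.032) and Gadd45b (0.077) in the interaction, and with quantile scaling Btg1 for diet (0.001). With 1 library left out the ranges that crossed 0 were as follows. In HFD-pre against CON-pre these were Mdm2 -0.066 to 0.067, Gadd45b -0.43 to 0.15, Sesn1 -0.052 to 0.14, Btg2 -0.031 to 0.12. In CON-post against CON-pre these were Btg1 -0.10 to 0.066. In HFD-post against HFD-pre these were Trp63 -0.005 to 0.39, Gadd45g -0.23 to 0.21. In HFD-post against CON-post these were Mdm2 -0.086 to 0.044, Cdkn1a -0.12 to 0.083, Gadd45g -0.69 to 0.13, Sesn1 -0.19 to 0.029, Btg1 -0.019 to 0.13. In the interaction these were Trp53 -0.10 to 0.087, Mdm2 -0.11 to 0.041, Gadd45b -0.25 to 0.33. For diet averaged over exercise states these were Mdm2 -0.053 to 0.024, Cdkn1a -0.012 to 0.11, Gadd45b -0.27 to 0.027, Gadd45g -0.17 to 0.23, Sesn1 -0.077 to 0.032, Btg1 -0.068 to 0.019. The call on the ratio of Btg2 to Btg1 passed in all 18 alternatives (adjusted exact permutation p of 0.0049 to 0.0098). That of Trp63 to Trp53 was lost in 11 (0.0245 to 0.104) and that of Cdkn1a to Cdkn1b in 8 (0.0098 to 0.0759). Both were lost without replicate 1 or 4 of CON-pre, HFD-pre or CON-post or replicate 3 or 4 of HFD-post, and that of Trp63 also without replicate 3 of CON-pre, HFD-pre or CON-post. For the ratios those that crossed 0 were Gadd45a to Gadd45g with exercise (-0.12 to 0.238), and Cdkn1a to Cdkn1b (-0.126 to 0.016) and Gadd45b to Gadd45g (-0.395 to 0.11) with diet. With 4 libraries a group and an unknown number of reads behind each value, the interval of Gadd45g in CON-post ran from a fold of 0.758 to one of 3.27.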
